A study of Mus musculus with 8 samples.

Results

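The interferon-stimulated genes described here are 50 mouse genes that interferons are known to induce or that carry the interferon signal into the nucleus. They were taken by name and followed on the arrays of isolated hepatocytes that lack the cannabinoid 1 receptor and of hepatocytes that keep it. The array design had a named probe for 48 of the 50 genes, 63 probes in all, and no probe was matched to *Mx1* or *Mx2*. A probe was well above background, by the scanner software's own flag, on at least 4 of the 8 arrays for 35 of them. These 35 were tested among 11072 genes of the 21368 that had a named probe.

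The hCNR1-/- mice carried floxed *Cnr1* and an albumin-Cre transgene (strain CNRO Alb-Cre), whose promoter is active in hepatocytes, so the receptor gene was to be lost in hepatocytes and not in the other cells of the liver. The hCNR1+/+ controls were littermates (strain CNRO). All mice were male, 12 to 14 weeks old and on the standard diet. The labels number 4 preparations of each genotype and do not state that each came from a separate mouse, so the p-values measure the spread between these preparations. The study's text counts fewer samples per genotype for its array results than the arrays deposited. All 8 arrays were used here, and which of them entered the study's own results is not given in the sources used here.

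Interferons are secreted proteins through which cells warn their neighbours of a virus or another microbe. Type I and type III interferons act through receptor-bound kinases on a complex that holds STAT2 and IRF9 and binds the interferon-stimulated response element, while interferon gamma acts through the gamma-activated site. The genes they switch on detect foreign nucleic acid, degrade or sequester viral RNA, attack the vacuoles of microbes inside the cell, and recruit lymphocytes. Hepatocytes respond to interferons, and so do the Kupffer cells, the macrophages resident in liver.

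*Cnr1* itself was represented by 1 probe that never rose well above background (0 arrays of either genotype). On these arrays the genotypes therefore rest on the labels. The study also reports *Cnr1* mRNA in hepatocytes isolated from mice of both genotypes, and its methods describe a pre-amplified PCR assay for this low transcript. The 75th percentile of the spot intensity, on which the arrays were scaled, ran from 29.3 on hCNR1-/- replicate 4 to 139 on hCNR1+/+ replicate 2. Between 28.6% and 42.3% of the spots were well above background on an array, lowest on that same hCNR1-/- array. All 20 hepatocyte markers were well above background on all 8 arrays, at a mean level of 8.11 to 8.78 in hCNR1+/+ and 8.09 to 8.49 in hCNR1-/- hepatocytes. Of these 20, *Apob* was called higher (log2 fold change 1.63, adjusted p = 0.0477 in limma) and *Ass1* (-1.14) and *Tdo2* (-1.03) lower. Every level given here is a log2 intensity relative to the 75th percentile of the same array, and it can be compared between arrays for 1 gene but not between genes. The 8 arrays lay on 1 slide, with hCNR1+/+ in row 1 and hCNR1-/- in row 2, so row and genotype cannot be told apart. In bulk preparations, fewer cells of a type and less RNA per cell cannot be told apart either.

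The promoters of the members were searched for the core of the interferon-stimulated response element, GAAANNGAAA on the gene's strand or TTTCNNTTTC when it lies on the other strand. RefSeq windows of GRCm38.p6, from 250 bases before the transcription start to 50 bases after it, were matched for 39 of the 50 members. The core was found in 23 of these 39 windows (58.97%), against 1079 of 27025 genes with a window (3.993%). It was present in 4 of the 7 windows of members called lower in hCNR1-/- hepatocytes and in 9 of the 18 windows of tested members with no call. Of the 9 windows of members called in either direction 5 held it, that of *Ifih1*, called higher, past the transcription start. The gamma-activated site, TTCNNNGAA, which reads alike on both strands, was found in 13 of the 39 windows (33.33%), against 2582 of 27025 genes (9.554%). It was in 1 of the 7 windows of members called lower, in 1 of the 9 of members called in either direction and in 7 of the 18 with no call. A match describes the letters only. Cores within the windows overlap in a few members, such as *Isg15*, *Oas1a* and *Irgm1*, and a promoter was counted once.

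The 4 members called lower whose promoters hold the core are shown for 100 bases around it, 5′ to 3′ on the gene's strand, with the core in capitals. Positions are counted from the transcription start, with the base before it as -1. The core lies at -213 to -204 in *Cxcl10* (chr5:92349040-92349139, minus strand), at -120 to -111 in *Rsad2* (chr12:26456518-26456617, minus strand), at -34 to -25 in *Igtp* (chr11:58199456-58199555, plus strand) and at -59 to -50 in *Gbp2* (chr3:142620559-142620658, plus strand). In *Rsad2* and *Gbp2* it reads on the opposite strand.
Cxcl10: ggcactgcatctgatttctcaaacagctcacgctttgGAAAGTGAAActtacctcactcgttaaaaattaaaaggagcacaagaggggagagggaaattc
Rsad2: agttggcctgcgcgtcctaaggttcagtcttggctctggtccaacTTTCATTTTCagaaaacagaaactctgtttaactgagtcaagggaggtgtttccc
Igtp: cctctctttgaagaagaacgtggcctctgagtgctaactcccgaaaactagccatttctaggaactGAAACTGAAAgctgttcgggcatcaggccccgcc
Gbp2: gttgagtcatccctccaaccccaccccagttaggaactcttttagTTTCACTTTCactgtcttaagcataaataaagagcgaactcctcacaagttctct

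Of the 35 tested interferon-stimulated genes, 23 had a lower and 12 a higher mean level in hCNR1-/- than in hCNR1+/+ hepatocytes. A gene was called at a fold change above 2 with a p below 0.05, the thresholds of the study, whose sources do not say whether the p was adjusted. Here the p is limma's, unadjusted. Of the 35 members, 10 were called lower (28.6%), against 3.75% of all tested genes. They were the chemokine gene *Cxcl10*, the antiviral genes *Rsad2*, *Rtp4*, *Xaf1* and *Oasl2*, the GTPase genes *Iigp1*, *Igtp* and *Gbp2*, the transcription factor gene *Irf9* and the RNA sensor gene *Dhx58*. Called higher were 2 members, *Ifih1* and *Samd9l* (5.71%, against 4.78% of all genes). The probes of 6 members called lower and 1 called higher were well above background on all 8 arrays, and those of *Oasl2*, *Rsad2*, *Iigp1*, *Gbp2* and *Samd9l* were not. The count of members called lower was 4 without hCNR1-/- replicate 3, 5 without hCNR1-/- replicate 4 or hCNR1+/+ replicate 1 and 6 without hCNR1+/+ replicate 4, and it was 2 with a normexp background correction. The share of all tested genes called lower was 2.97% to 4.10% in these fits without an array and 0.957% with normexp. Of the members called higher, *Samd9l* was lost in 4 of the 8 fits that leave out an array.

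After Benjamini-Hochberg adjustment over all tested genes, 0 members were lower at an adjusted p below 0.05, where the share of all genes was 1.3%. The same limma fit put 10 members lower at an unadjusted p below 0.05 (all genes, 6.92%). *Ifih1* was the 1 member higher after adjustment (all genes, 2.94%), and 3 were higher at an unadjusted p below 0.05 (all genes, 14.7%), the third being *Ifi35*. No overlap between the genotypes was seen for *Oasl2* and *Igtp*, which lay lower in hCNR1-/- hepatocytes (5.04% of all genes did), and for *Ifih1*, which lay higher (12.7% of all genes). For *Oasl2* this compares values of which 4 of 8 were not well above background.

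The 35 members had a median log2 fold change, hCNR1-/- minus hCNR1+/+, of -0.37, beside 0.08 over all tested genes. It was below 0 for 23 members (65.7%) and for 43.4% of all genes. The 23 members with no call had a median of -0.17 and ran from -1.0 to 0.86. The spread between preparations was wide. The median SD of a member was 0.54 among hCNR1+/+ and 0.60 among hCNR1-/- arrays, beside 0.29 and 0.45 over all tested genes.

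**Figure D1:**
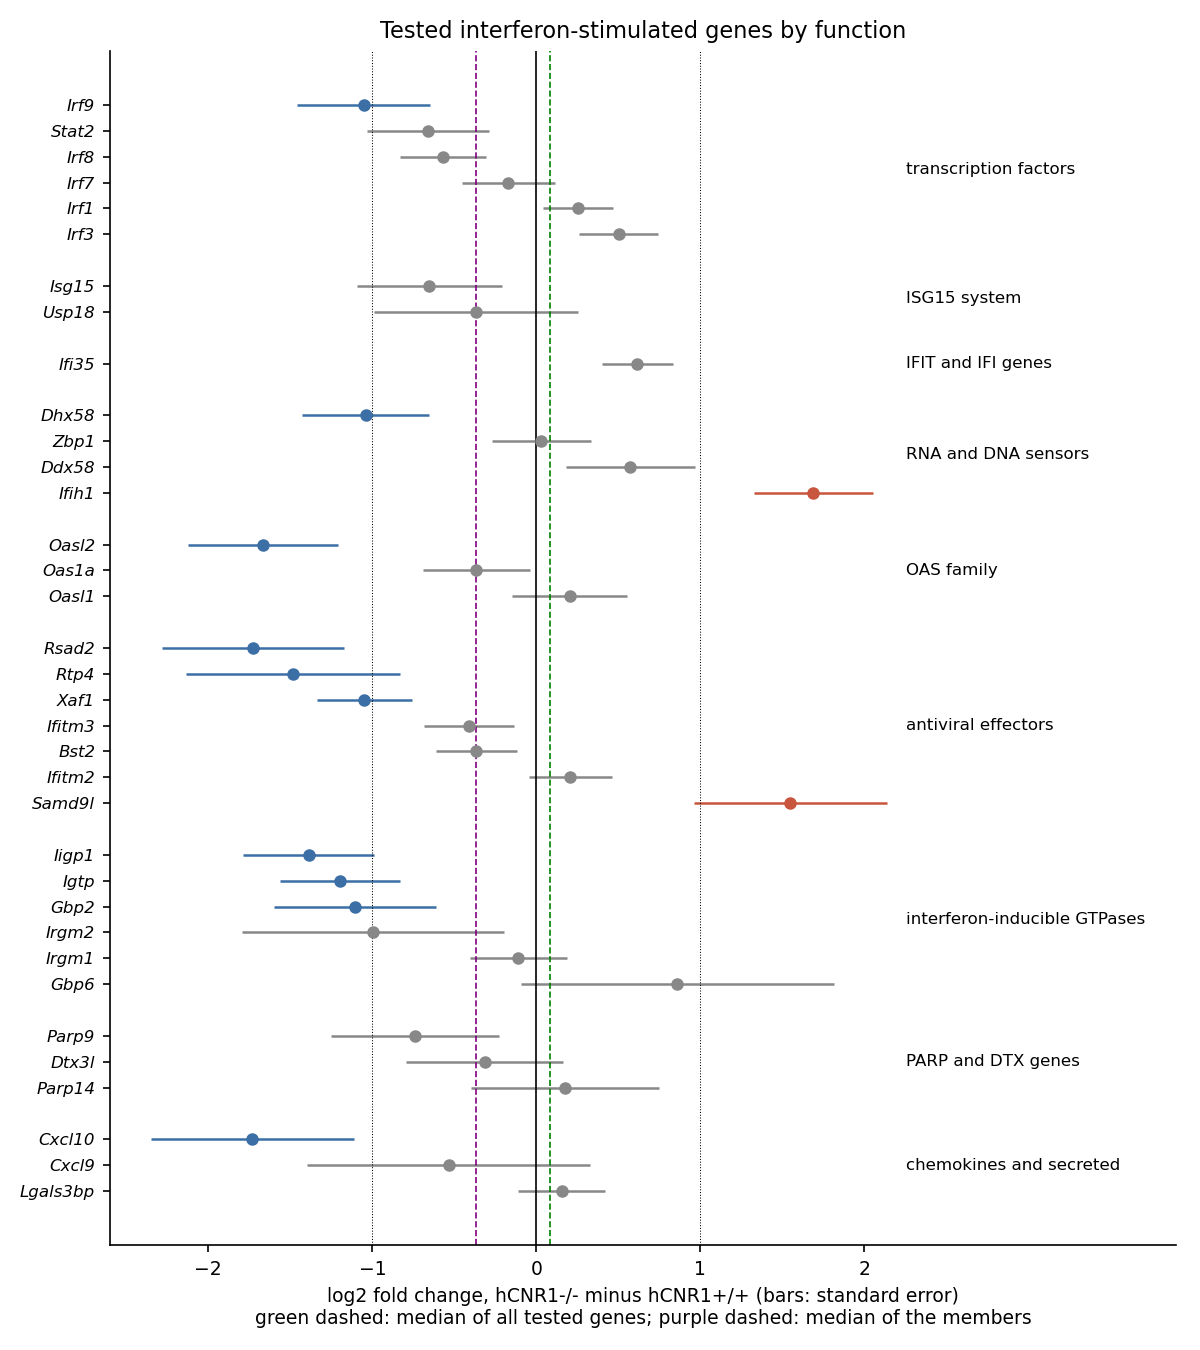
Log2 fold change, hCNR1-/- minus hCNR1+/+, of the 35 tested members (points, with the standard error as bars), grouped by function. Blue points were called lower and red points higher at a fold change above 2, marked by dotted lines, and an unadjusted p below 0.05. The dashed lines mark the medians of the members (-0.37) and of all tested genes (0.08). The called lower genes are spread over 6 of the 9 functional groups.

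Genes of the interferon pathway that stand outside the members were followed first. They were 73 genes of ligands, receptors, JAK, STAT and other IRF proteins, nucleic acid sensing and its adaptors, negative regulators and ISG15 conjugation. Of these pathway genes 45 were tested, 1 was called lower and 3 higher (all genes, 3.75% and 4.78%). Among 21 interferon genes 1, *Ifnl3*, was tested (log2 fold change 0.36, exact permutation p = 0.114). The receptor genes showed no call, with log2 fold changes of 0.02 for *Ifnar1*, -0.35 for *Ifnar2*, 0.17 for *Ifngr1*, 0.31 for *Ifngr2* and -0.45 for *Il10rb*, and *Ifnlr1* was not tested. Of the receptor-bound kinases, *Jak1* was at -0.37 and *Tyk2* at -0.30, neither called.

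*Jak2*, a kinase of the interferon gamma receptor, was called higher. Its level was -0.39, -0.94, -0.98 and -2.42 on the hCNR1+/+ arrays, in the order of replicates 1 to 4, and -0.23, -0.71, -0.16 and 0.60 on the hCNR1-/- arrays. The genotypes overlapped, with a log2 fold change of 1.06 ± 0.44 (SE), an unadjusted limma p of 0.0376 and an adjusted p of 0.201. The probe was not well above background on hCNR1+/+ replicate 4. Its call was lost without hCNR1+/+ replicate 3 (1.13) or 4 (0.65) or hCNR1-/- replicate 1 (1.09), 3 (1.07) or 4 (0.82). *Stat3* was higher without overlap, at 0.87 (adjusted p = 0.0948 in limma), which is under the fold threshold.

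Called higher were also *Tank* at 1.45 and *Azi2* at 1.64, adaptors of the kinase TBK1, which phosphorylates IRF3. Both probes were well above background on 2 hCNR1+/+ and 4 hCNR1-/- arrays, so that they were tested because of the genotype in which they were higher, and the hCNR1+/+ values of replicates 2 and 4 were not well above background. *Azi2* lost its call without hCNR1+/+ replicate 2 (1.78), 3 (1.63) or 4 (1.19) or hCNR1-/- replicate 4 (0.93). *Tbk1* itself was at -0.73, with an unadjusted p of 0.0330. *Socs3*, an inhibitor of cytokine receptors, was the 1 pathway gene called lower, at -1.35 ± 0.51 (SE). Its hCNR1+/+ levels were 3.11, 3.17, 5.56 and 4.50 and its hCNR1-/- levels 2.35, 2.96, 3.0 and 2.66, with no overlap (exact two-sided permutation p = 0.0286, the smallest that 4 against 4 arrays can give). Its call was lost without hCNR1+/+ replicate 3 (-0.85) or 4 (-1.21) or hCNR1-/- replicate 1 (-1.21) or 4 (-1.32). Past an unadjusted p of 0.05 but under the fold threshold stood *Irf5* at 0.71 and *Nlrx1* at 0.67. No pathway gene passed at an adjusted p below 0.05 (all genes, 1.3% lower and 2.94% higher). By unadjusted p, 2 were lower and 6 higher (all genes, 6.92% and 14.7%). Without overlap between the genotypes, 1 pathway gene lay lower and 4 higher (all genes, 5.04% and 12.7%).

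Among the member transcription factors, *Irf9* was called lower and the other 5 were not called. *Irf9* encodes the DNA-binding subunit of the complex that holds STAT2. Its levels were 4.08, 2.88, 3.53 and 4.01 in hCNR1+/+ hepatocytes (mean 3.63 ± 0.55 SD, n = 4) and 2.89, 3.44, 2.23 and 1.74 in hCNR1-/- hepatocytes (2.57 ± 0.75). The genotypes overlapped, since hCNR1-/- replicates 1 and 2 reached hCNR1+/+ replicate 2. Its log2 fold change was -1.05 ± 0.41 (SE), with an unadjusted limma p of 0.0275 and an adjusted p of 0.171. The call was lost when hCNR1+/+ replicate 1 or 4 or hCNR1-/- replicate 3 or 4 was left out, at -0.90, -0.92, -0.94 and -0.77.

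*Stat2*, the partner of IRF9, had levels of 3.63, 2.53, 3.06 and 3.01 in hCNR1+/+ and 2.81, 2.96, 2.43 and 1.38 in hCNR1-/- hepatocytes. Its log2 fold change of -0.66 ± 0.37 (SE) did not pass (exact permutation p = 0.143), and hCNR1-/- replicate 4 was the lowest array. *Irf8*, a factor best known in macrophages and dendritic cells, read -0.39, -0.40, -0.23 and 0.52 against -0.91, -0.75, -0.33 and -0.78, a log2 fold change of -0.57 that did not pass (exact permutation p = 0.0857).

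*Irf7*, the amplifier of interferon production, was close to equal, at 0.00, 0.29, 0.73 and -0.31 against -0.30, 0.10, -0.27 and 0.50 (log2 fold change -0.17 ± 0.28 SE). *Irf1*, the early mediator of interferon gamma, read 3.81, 3.48, 3.89 and 4.0 against 3.98, 4.42, 3.87 and 3.92, a log2 fold change of 0.25. *Irf3*, which is activated by phosphorylation rather than by induction, read 7.36, 7.17, 6.93 and 7.33 against 7.50, 7.78, 7.30 and 8.21, a log2 fold change of 0.50 (exact permutation p = 0.0857). None of these 3 passed the test. Without scaling between the arrays, which shifts the median of all genes to -0.47, *Irf1* was at -0.30 and *Irf3* at -0.055.

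The sensors of foreign nucleic acid went both ways. *Ifih1*, which encodes MDA5, a sensor of long double-stranded RNA, was higher in hCNR1-/- hepatocytes on every array. The hCNR1+/+ levels were -0.27, -1.68, -1.92 and -0.78 (mean -1.16 ± 0.77 SD, n = 4) and the hCNR1-/- levels 0.38, 0.27, 0.69 and 0.76 (0.53 ± 0.24). The log2 fold change was 1.69 ± 0.36 (SE), a 3.22-fold difference, with an adjusted p of 0.0376 in limma and an exact permutation p of 0.0286. It kept its call whichever array was left out, at 1.44 to 1.99, and lost it without scaling (1.13) and with normexp (0.76). The adjusted p was 0.0312 without hCNR1+/+ replicate 1 and 0.0359 without hCNR1-/- replicate 4, from 0.0559 to 0.110 in the other 6 fits that leave out an array, and between 0.00524 and 0.817 over all alternatives.

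*Dhx58*, whose product LGP2 modulates the other RNA sensors, was called lower. It read 1.30, -0.12, 0.50 and 0.44 in hCNR1+/+ (0.53 ± 0.59 SD, n = 4) and -0.33, 0.18, -1.40 and -0.50 in hCNR1-/- hepatocytes (-0.51 ± 0.66). Replicate 2 of hCNR1+/+ and replicate 2 of hCNR1-/- overlapped the other genotype. The difference was -1.04 ± 0.39 (log2, SE), with an unadjusted limma p of 0.0239 and an adjusted p of 0.160. The call was lost without hCNR1+/+ replicate 1 (-0.78) or hCNR1-/- replicate 3 (-0.74).

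*Ddx58*, which encodes the RNA sensor RIG-I, read 2.09, 0.46, 1.05 and 0.63 against 2.23, 1.86, 1.26 and 1.17, a log2 fold change of 0.57 that did not pass (exact permutation p = 0.257). The hCNR1+/+ preparation 1 stood with the upper hCNR1-/- arrays. *Zbp1*, a sensor of Z-form nucleic acid, read 1.67, 1.45, 2.28 and 1.49 against 1.39, 2.05, 2.30 and 1.26 (0.03 ± 0.30 SE). A further *Zbp1* probe, well above background on 5 arrays, differed by -0.86, so the probes of this gene disagree in sign. *Eif2ak2*, which encodes the kinase PKR, was not tested.

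*Oasl2* belongs to the oligoadenylate synthetase family, whose enzymes make the messenger that activates RNase L. It was called lower in hCNR1-/- hepatocytes, at -2.97, -2.86, -4.43 and -3.15 (mean -3.35 ± 0.73 SD, n = 4), than in hCNR1+/+ hepatocytes, at -0.84, -2.48, -2.22 and -1.21 (-1.69 ± 0.79). The fitted log2 fold change was -1.67 ± 0.46 (SE, adjusted p = 0.0721 in limma). The probe was dim, well above background on 3 hCNR1+/+ arrays and 1 hCNR1-/- array, and it was tested because of the genotype in which it was higher. The readings of hCNR1+/+ replicate 2 and of hCNR1-/- replicates 2, 3 and 4 lay under the lowest signal that was well above background on the same array, so the size of the difference is that of a signal against background. With normexp it was -0.39 and the call was lost.

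*Oas1a* read 2.33, 1.58, 2.34 and 2.16 against 1.72, 2.57, 1.16 and 1.49, a log2 fold change of -0.37 (exact permutation p = 0.343). The highest of its 8 values was that of hCNR1-/- replicate 2. *Oasl1* read 5.11, 4.65, 4.44 and 4.23 against 5.56, 5.01, 3.91 and 4.76, a log2 fold change of 0.20, which was -0.35 without scaling. *Oas2* and *Oas3* were well above background on 0 arrays.

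Among the antiviral effectors 7 of 10 were tested, 3 were called lower and 1 higher. *Rsad2* encodes viperin, an enzyme that makes a chain-terminating nucleotide. Its hCNR1+/+ levels were 0.77, -1.40, -0.12 and 0.94 (mean 0.05 ± 1.07 SD, n = 4) and its hCNR1-/- levels -1.0, -1.39, -1.52 and -2.82 (-1.68 ± 0.79). Only hCNR1+/+ replicate 2 lay among the hCNR1-/- arrays, and on hCNR1-/- replicate 4 the probe was not well above background. That reading lay under the lowest signal well above background on the array (-0.85), so the fitted difference rests in part on background. The difference was -1.73 ± 0.55 (log2, SE), with an unadjusted limma p of 0.0115 and an adjusted p of 0.110. The call held whichever array was left out, at -2.21 to -1.35, and was lost with normexp (-0.70).

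*Rtp4*, a chaperone gene induced by type I interferon, read 3.61, 0.73, 1.59 and 1.96 (1.97 ± 1.21 SD, n = 4) in hCNR1+/+ and 0.88, 1.71, 0.00 and -0.65 (0.49 ± 1.03) in hCNR1-/- hepatocytes. Preparation 1 stood above the other hCNR1+/+ arrays, and the genotypes overlapped. The difference was -1.48 ± 0.65 (log2, SE), with an unadjusted limma p of 0.0473 and an adjusted p of 0.225. The call held in 2 of the 8 fits that leave out an array and was lost without hCNR1+/+ replicate 1 (-0.94), 3 (-1.61) or 4 (-1.49) or hCNR1-/- replicate 1 (-1.62), 3 (-1.32) or 4 (-1.11).

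*Xaf1*, a pro-apoptotic gene induced by interferon, read 2.35, 1.29, 2.12 and 2.07 (1.96 ± 0.46 SD, n = 4) in hCNR1+/+ and 0.74, 1.46, 0.70 and 0.72 (0.91 ± 0.37) in hCNR1-/- hepatocytes. hCNR1-/- replicate 2 stood apart from its group and above hCNR1+/+ replicate 2. The difference was -1.05 ± 0.29 (log2, SE), close to the fold threshold, with an unadjusted limma p of 0.00498 and an adjusted p of 0.0728. Of the 8 fits that leave out an array, 5 put it just under the fold threshold. These were without hCNR1+/+ replicate 1 (-0.92) or 3 (-1.0), or hCNR1-/- replicate 1 (-0.99), 3 (-0.98) or 4 (-0.99).

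*Samd9l*, a restriction factor of poxviruses, was called higher. It read -0.99, -1.62, -2.69 and -4.22 (-2.38 ± 1.41 SD, n = 4) in hCNR1+/+ and -0.68, -0.88, -1.06 and -0.72 (-0.83 ± 0.17) in hCNR1-/- hepatocytes. Replicate 1 of hCNR1+/+ overlapped the hCNR1-/- arrays. The difference was 1.55 ± 0.59 (log2, SE), with an unadjusted limma p of 0.0263 and an adjusted p of 0.167. Its probe was well above background on 2 hCNR1+/+ arrays and on all 4 hCNR1-/- arrays, so it was tested because of the genotype in which it was higher. The reading of hCNR1+/+ replicate 4 lay under the lowest signal well above background on that array (-2.29), and the fitted difference, 0.93 without that array, rests in part on background. The call was also lost without hCNR1+/+ replicate 3 (1.44) or hCNR1-/- replicate 1 (1.5) or 4 (1.51).

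The effectors of the membrane did not pass. *Bst2*, which tethers budding virions, read 6.06, 5.98, 6.42 and 6.83 against 5.99, 6.12, 6.10 and 5.62 (log2 fold change -0.37 ± 0.25 SE). *Ifitm3*, which blocks fusion of viruses in endosomes, read 7.52, 7.07, 7.72 and 8.07 against 6.89, 7.24, 6.93 and 7.68 (-0.41 ± 0.28). *Ifitm2*, of the same family, read 5.82, 5.55, 5.84 and 6.34 against 5.77, 6.31, 5.82 and 6.46 (0.21 ± 0.25). All 3 were well above background on all arrays and all 3 overlapped between genotypes.

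The interferon-inducible GTPases, which act on vacuoles that hold microbes, had the lowest median among the functional groups with more than 3 tested members, -1.05 over 6 genes. Of these 6, 5 had a log2 fold change below 0 and 3 were called lower. *Igtp* read 3.78, 2.60, 2.69 and 2.97 (mean 3.01 ± 0.54 SD, n = 4) in hCNR1+/+ and 2.37, 2.27, 1.07 and 1.55 (1.81 ± 0.62) in hCNR1-/- hepatocytes. The genotypes did not overlap (exact permutation p = 0.0286). Its log2 fold change was -1.20 ± 0.37 (SE, adjusted p = 0.0976 in limma), and the call was lost without hCNR1+/+ replicate 1 (-0.94) or hCNR1-/- replicate 3 (-0.95).

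*Iigp1*, of the same immunity-related GTPase family, read 0.75, 0.72, -0.99 and -0.37 (0.03 ± 0.86 SD, n = 4) in hCNR1+/+ and -1.68, -1.50, -0.93 and -1.32 (-1.36 ± 0.32) in hCNR1-/- hepatocytes. Only hCNR1+/+ replicate 3 lay among the hCNR1-/- arrays. On hCNR1-/- replicate 4 the probe was not well above background, and its reading lay under that array's lowest such signal (-0.85). The difference of -1.39 ± 0.40 (log2, SE), with an unadjusted limma p of 0.00645 and an adjusted p of 0.0827, kept its call whichever array was left out, at -1.73 to -1.15, and lost it with normexp (-0.71).

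*Gbp2*, a guanylate-binding protein gene, read -0.64, 0.23, 1.56 and 0.89 (0.51 ± 0.94 SD, n = 4) in hCNR1+/+ and -0.64, -0.62, 0.28 and -1.41 (-0.60 ± 0.69) in hCNR1-/- hepatocytes. The log2 fold change was -1.11 ± 0.49 (SE) with an unadjusted limma p of 0.0496 and an adjusted p of 0.230, the call nearest to the threshold. On hCNR1-/- replicate 4 its probe was not well above background, and its reading lay under that array's lowest such signal (-0.85). The call held in 2 of the 8 fits that leave out an array, and was lost without hCNR1+/+ replicate 2 (-1.20), 3 (-0.76) or 4 (-0.98) or hCNR1-/- replicate 1 (-1.09), 2 (-1.10) or 4 (-0.84).

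*Irgm2* and *Irgm1*, regulators of this GTPase family, were not called. *Irgm2* read 3.21, 0.25, 1.73 and 1.98 against 1.79, 2.20, 0.39 and -1.22, a log2 fold change of -1.0 ± 0.80 (SE, exact permutation p = 0.429). Its values spanned a wide range in both genotypes, and on hCNR1-/- replicate 4 its probe was not well above background. *Irgm1* read 2.25, 1.09, 1.40 and 1.39 against 1.87, 1.36, 1.48 and 0.99 (-0.11 ± 0.30), and a further probe of the gene differed by -0.84. *Gbp6* ran from -0.41 to 1.61 in hCNR1+/+ and from -0.66 to 4.40 in hCNR1-/- hepatocytes, where replicate 4 gave the top value. Its log2 fold change of 0.86 became -0.18 without that array. Whether these probes bind transcripts of near-identical family members was not tested.

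The chemokine gene *Cxcl10* showed, with *Rsad2*, the lowest log2 fold change of the 35 members. CXCL10 attracts T cells and NK cells through the receptor CXCR3. Its hCNR1+/+ levels were 2.46, 2.40, 2.74 and 4.17 (mean 2.94 ± 0.83 SD, n = 4) and its hCNR1-/- levels 1.90, 2.54, 0.67 and -0.25 (1.21 ± 1.25). Replicate 2 of hCNR1-/- lay within the hCNR1+/+ range and replicates 1, 3 and 4 under it. The difference was -1.73 ± 0.62 (log2, SE), a 3.32-fold lower level, with an unadjusted limma p of 0.0196 and an adjusted p of 0.145. The call was lost without hCNR1+/+ replicate 4 (-1.32) or hCNR1-/- replicate 3 (-1.55) or 4 (-1.24).

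*Cxcl9*, a ligand of the same receptor and a typical target of interferon gamma, read -0.18, 2.18, 3.66 and 1.51 against 0.17, 0.39, 3.30 and 1.17. Both genotypes spanned more than 3 log2 units, and the log2 fold change of -0.53 ± 0.86 (SE) did not pass (exact permutation p = 0.600). A further *Cxcl9* probe, well above background on 7 arrays, differed by -2.04. *Lgals3bp*, a secreted glycoprotein gene, read 5.70, 4.99, 5.01 and 4.89 against 5.56, 5.64, 4.90 and 5.10 (0.15 ± 0.27).

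The ISG15 system, in which the ubiquitin-like ISG15 is attached to proteins and removed by USP18, had no call. *Isg15* read 4.17, 2.20, 2.82 and 2.33 against 2.62, 2.68, 1.69 and 1.92, a log2 fold change of -0.65 ± 0.44 (SE, exact permutation p = 0.286). Preparation 1 of hCNR1+/+ was far above the other arrays. *Usp18* read 3.56, 3.41, 3.08 and 3.80 against 3.53, 4.22, 3.70 and 0.93, so that its log2 fold change of -0.37 became 0.35 without hCNR1-/- replicate 4.

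*Ifi35* was the 1 gene of the IFIT and IFI families that could be tested. It read 4.71, 4.38, 4.39 and 4.09 against 4.99, 5.10, 4.70 and 5.24, a log2 fold change of 0.62 ± 0.22 (SE), with an unadjusted limma p of 0.0184 and an adjusted p of 0.139. This is a 1.53-fold difference, under the fold threshold.

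*Parp9* and *Dtx3l*, whose products form an ADP-ribosylating ubiquitin ligase, and *Parp14* had no call. *Parp9* read 1.03, -0.28, -0.04 and -0.45 against -0.15, -0.01, -0.35 and -2.19 (log2 fold change -0.74 ± 0.51 SE). *Dtx3l* read 1.14, 0.22, 0.83 and 1.12 against 1.32, 0.93, 0.81 and -1.02 (-0.31 ± 0.48), and it was at 0.19 without hCNR1-/- replicate 4. *Parp14* read 1.34, -0.22, -0.14 and -0.15 against 0.97, 1.24, 0.64 and -1.32 (0.17 ± 0.58). On hCNR1-/- replicate 4 all 3 readings lay under the lowest signal well above background on that array (-0.85), so that they are background readings and these 3 differences rest in part on them.

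**Figure D2:**
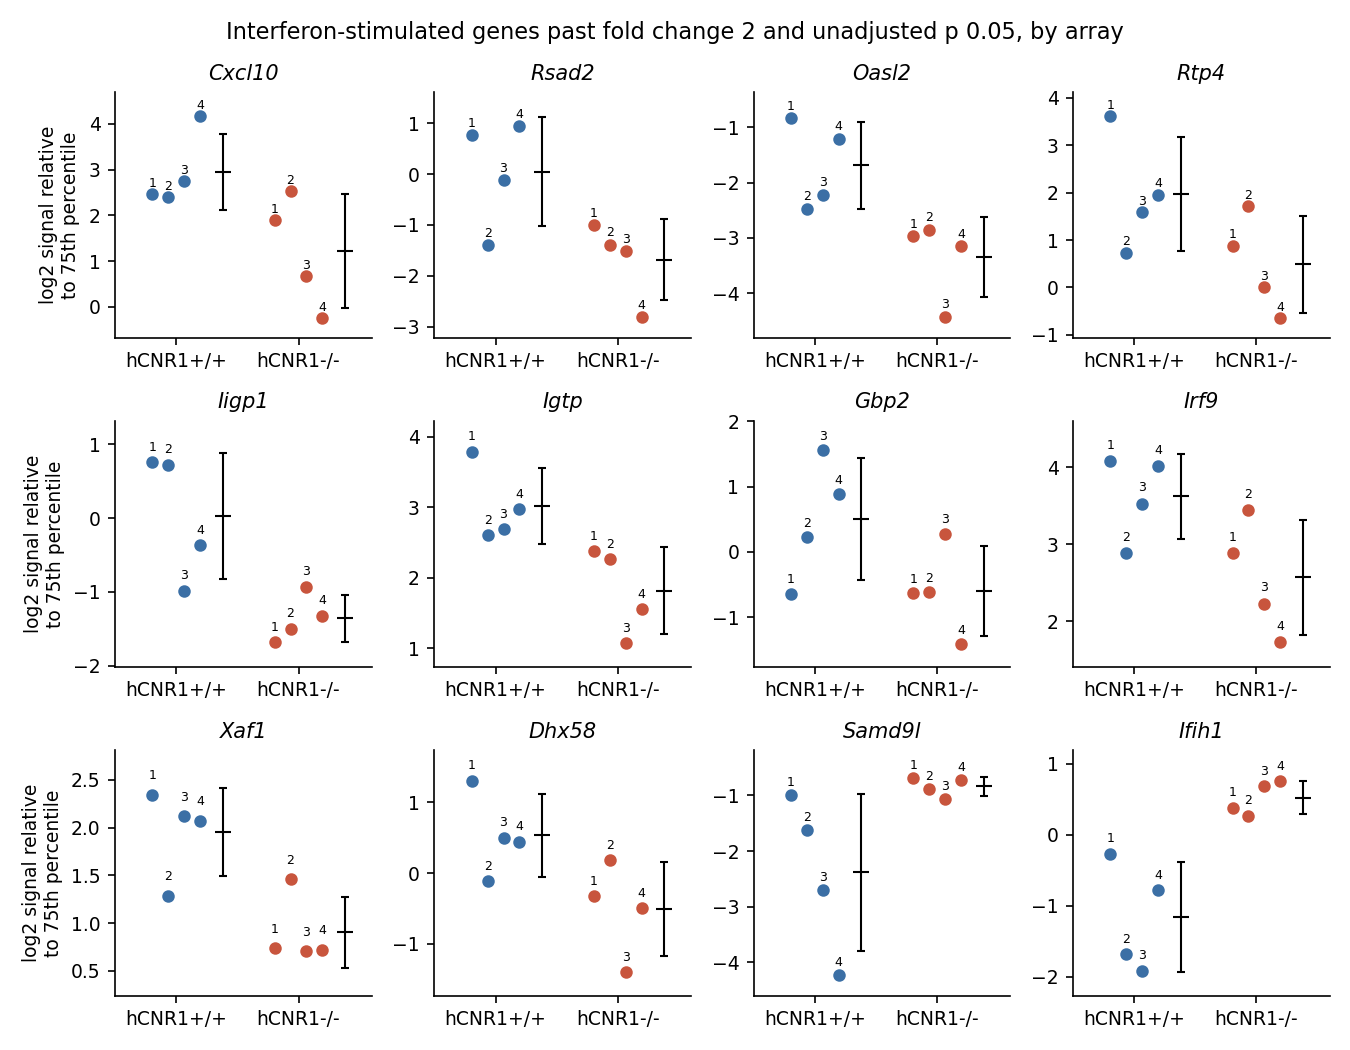
Level (log2 intensity relative to the 75th percentile of the array) of the 10 members called lower and the 2 called higher, on each array (blue, hCNR1+/+; red, hCNR1-/-; the small numbers are the replicates). The bars beside the points give the mean and SD of 4 arrays, and each panel has its own vertical scale. *Oasl2*, *Igtp* and *Ifih1* show no overlap between the genotypes, and the other 9 do.

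The 13 members that had a named probe and were not tested were dim on nearly all arrays. *Oas2*, *Oas3*, *Gbp5*, *Gbp7*, *Tgtp1* and *Trim30a* were well above background on 0 arrays. The other 7, *Ifit1*, *Ifit2*, *Ifit3*, *Ifi44*, *Gbp3*, *Eif2ak2* and *Herc6*, were all well above background on hCNR1+/+ replicate 1. This was so for 1 of the 13 on hCNR1+/+ replicate 2, for 2 on replicate 3 and for 0 on replicate 4, and among the hCNR1-/- arrays for 1 on replicate 3 and for 0 on the others. On hCNR1+/+ replicate 1 the most spots were well above background (42.3%). The lowest signal well above background was -3.27 on that array and -3.07 to -0.85 on the others. *Ifi44* was counted there at -3.05 and not on hCNR1-/- replicate 4 at -1.64. These counts therefore compare arrays with unlike detection limits. No fold change is given for the 13 members.

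Single preparations stood high or low for many members. Within the hCNR1+/+ group, replicate 1 was the highest array for 21 of the 35 members and replicate 2 the lowest for 23. Within the hCNR1-/- group, replicate 2 was the highest for 16, and replicates 4 and 3 were the lowest for 15 and 12. Replicate 4 of hCNR1-/- was the dimmest array, and its lowest signal well above background was -0.85. Its readings of *Oasl2*, *Rsad2*, *Gbp2*, *Irgm2*, *Iigp1*, *Parp9*, *Parp14* and *Dtx3l* lay under that signal, and they enter these ranks and the means below. The mean level of the 35 members was 2.52, 1.75, 2.14 and 2.21 on the hCNR1+/+ arrays (2.15 ± 0.32 SD, n = 4) and 1.90, 2.14, 1.68 and 1.42 on the hCNR1-/- arrays (1.78 ± 0.31). These overlapped. The 10 genes called lower averaged 1.76, 0.69, 1.14 and 1.59 against 0.22, 0.52, -0.33 and -0.61, values that do not overlap because these genes were chosen for that difference.

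Markers of another cell type moved with genotype as well. Of 17 Kupffer cell markers 12 were tested, and all 12 had a log2 fold change below 0 (all genes, 43.4%). Called lower were 6 (all genes, 3.75%), *Marco* (-2.41), *Ctss* (-1.89), *Vsig4* (-1.77), *Clec4f* (-1.33), *Mpeg1* (-1.26) and *C1qa* (-1.13). *Vsig4* and *Ctss* were well above background on at most 6 arrays, and *Clec4f* and *Mpeg1* on at most 7. Only *Marco* (0.0336) and *Ctss* (0.0124) had an adjusted limma p below 0.05. The mean level of the 12 was 1.03 to 2.22 in hCNR1+/+ and -0.05 to 0.72 in hCNR1-/- preparations. *Timd4*, *Cd163* and *Aif1* were well above background on 0 arrays. In the order of replicates 1 to 4, the Kupffer cell mean was 1.03, 1.52, 1.32 and 2.22 on the hCNR1+/+ arrays. It was 0.39, -0.05, 0.72 and 0.54 on the hCNR1-/- arrays. The part of Kupffer cell RNA in the result was not tested.

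The markers of other cell types gave fewer calls. Of 16 sinusoidal endothelial markers 12 were tested and 0 called, with 8 below 0 and a mean level of 0.31 to 1.11 in hCNR1+/+ and 0.26 to 0.72 in hCNR1-/- preparations. Of 17 lymphocyte markers 13 were well above background on 0 arrays, *Cd3d*, *Ms4a1* and *Ncr1* among them. This was so for 6 of 9 dendritic cell, 8 of 12 neutrophil, 7 of 10 stellate cell and 2 of 7 cholangiocyte markers. The members of these lists that were tested, 3, 2, 2, 2 and 3, gave 0 calls in either direction. Of the lymphocyte list these were *Cd3e*, *Cd4* and *Nkg7*, well above background on all 8 arrays. Their log2 fold changes were 0.90, 0.61 and 0.45. In the dendritic cell list *Siglech* was at -0.99 and *Zbtb46* at 0.53, and in the neutrophil list *Csf3r* at -0.80 and *Elane* at 0.70. The unadjusted limma p was below 0.05 for *Cd3e* (0.0217), *Siglech* (0.0153), *Csf3r* (0.00491) and *Elane* (0.0161), all under the fold threshold.

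**Figure D3:**
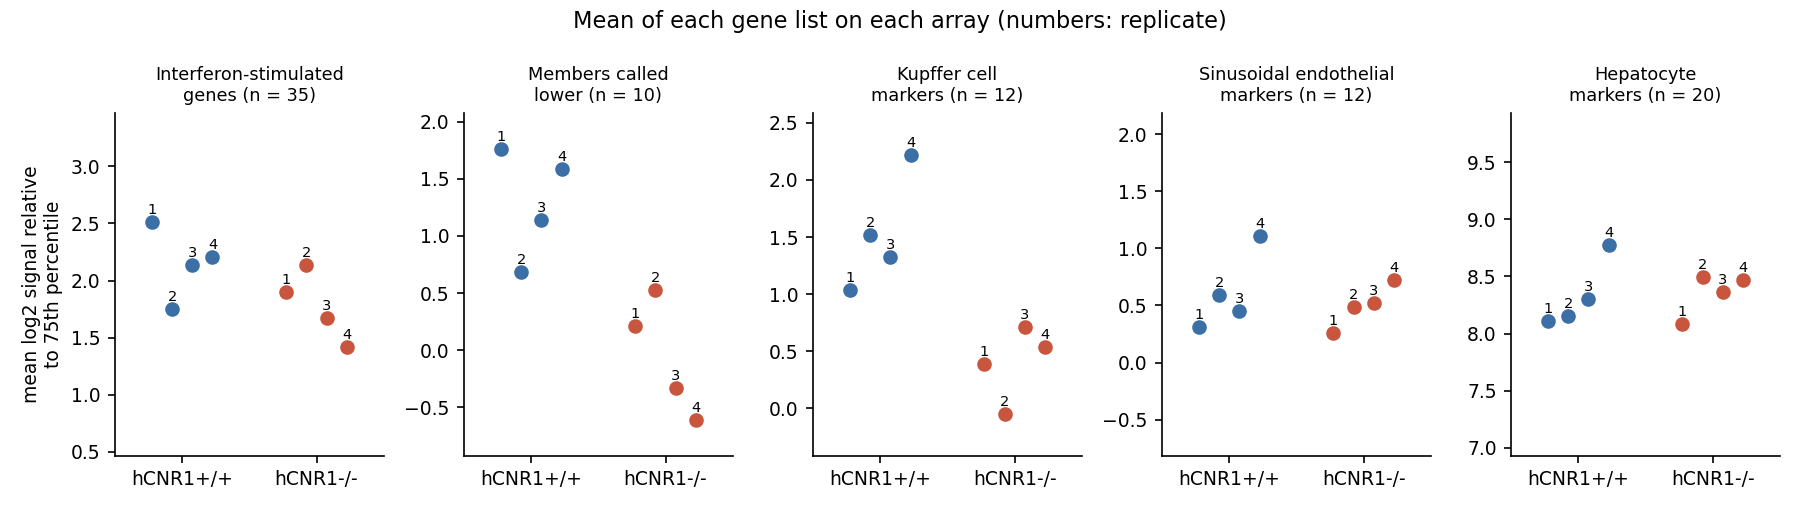
Mean log2 intensity relative to the 75th percentile, averaged on each array over the tested interferon-stimulated genes, the 10 of them called lower, and the tested markers of Kupffer cells, sinusoidal endothelial cells and hepatocytes (n, genes averaged). Points are arrays, blue for hCNR1+/+ and red for hCNR1-/-, numbered by replicate, and all panels span the same log2 range. The Kupffer cell markers separate the genotypes, at 1.03 and above against 0.72 and under, while the means of all 35 interferon-stimulated genes overlap.

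The place of the members among all genes was compared across processing settings. Their median log2 fold change lay 0.37 to 0.58 under the median of all tested genes in each of the settings, although the medians themselves moved. Without scaling between arrays the median of all genes was -0.47 and that of the members -0.92.

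**Figure D4:**
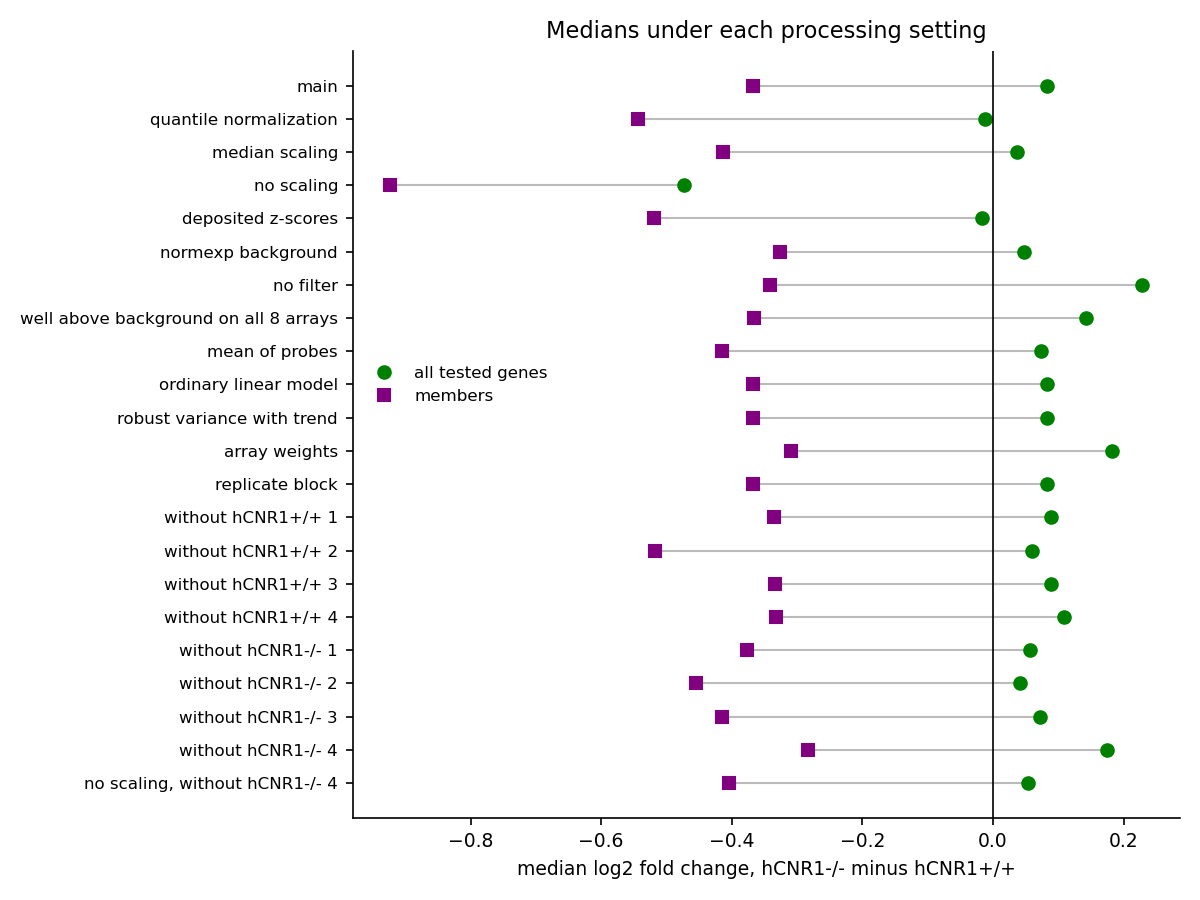
Median log2 fold change, hCNR1-/- minus hCNR1+/+, of the members (purple squares) and of all tested genes (green circles) under the main processing (top) and each alternative. The member median lies to the left of the median of all genes in every line, and both shift left together without scaling, to -0.92 and -0.47.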

How the data were processed

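Cy3-labelled cRNA from hepatocytes was measured on Agilent mouse arrays of a single colour, 4 per genotype. Per the file headers, the deposited spot intensity was made by the authors with Feature Extraction 12.0.3.1, which corrects the background and leaves arrays unscaled. The authors also deposited a score, which differed by at most 0.005 from each array's own z-scored log intensity and served as an alternative. The test and scaling behind the study's array results are not given in the sources used here.

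Intensities were taken to log2 and the array's 75th percentile over 59305 non-control spots was subtracted. Outlier spots were left out and the other spots of a probe averaged. A probe needed the software's flag on 50% or more of its spots to count as well above background. Accessions were matched to RefSeq symbols (GRCm38.p6), which named 28331 of 55681 probes. Each gene had its brightest probe, and 11072 genes with 4 or more of 8 arrays well above background were tested with lmFit and eBayes (two-sided; limma 3.58.1, R 4.3.3, Benjamini-Hochberg) and with exact permutation over 70 assignments. The fit was tested on simulated data. Precision is limited by 4 arrays per genotype.

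The members and lists were chosen with earlier results of these data known. Values on each array are given for members past an unadjusted p of 0.05, the transcription factors and the 3 brightest of each functional group, and by range for the other member. Pathway genes are named past the same p or as receptors, *Jak1*, *Jak2* or *Tyk2*, and a further gene of this rule is not reported here; *Ifnl3*, the 1 tested ligand, was named after its values were seen. Slide or scan blocks were not possible with 1 slide and 1 scan day. Alternatives were other scalings, the deposited scores, normexp, filters, probe averaging, variance models, array weights, a replicate block and each array left out. Normexp used the median signal and an offset of 50. Dixon's ratio was computed for 88 groups of 4 arrays.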

Additional observations from a re-analysis of the deposited data

Results flagged for a closer look

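In 6 of the 88 groups of 4 arrays examined, over members and marker lists, 1 array stood so far from its group that its gap to the nearest array, divided by the group's range, passed Dixon's critical value for 4 arrays. Chance gives about 1 group in 20. Of the members, *Xaf1* on hCNR1-/- replicate 2 was high, at 1.46 against 0.70 to 0.74 on the others (ratio 0.959). *Parp9* on hCNR1-/- replicate 4 was low, at -2.19 against -0.35 to -0.01 (ratio 0.844), where its probe was not well above background and lay under that array's lowest well-measured signal (-0.85). Replicate 1 of hCNR1+/+ was high for *Parp14*, at 1.34 against -0.22 to -0.14 (ratio 0.950), and for *Lgals3bp*, at 5.70 against 4.89 to 5.01 (ratio 0.860). Replicate 4 of hCNR1-/-, the dimmest array, was high for the mean of the 3 tested lymphocyte markers, at 5.30 against 3.98 to 4.18 (ratio 0.852), and of the 2 tested neutrophil markers, at 5.6 against 4.92 to 5.01 (ratio 0.868).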

How the results depend on the processing

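Of 10 members called lower, 9 remained with quantile normalization or robust variance, 10 without scaling or with probe means, 8 with the deposited z-scores, 7 with array weights or the replicate block, 6 with median scaling or only probes well above background on all 8 arrays, 5 with an ordinary linear model and 2 with normexp. Of all tested genes 3.75% were called lower in the main processing. This share was 5.69% without scaling, 4.22% with the z-scores, 4.08% with quantile normalization, 2.94% with median scaling and 0.957% with normexp. It was 1.73% with all 8 arrays required, where 26 members were tested. With probe means, the variance models, array weights or the replicate block it was 2.83% to 3.77%. Without a filter 9 members were called lower, 8 of them the same (all genes, 2.32%). Leaving out 1 array left 4 to 9 members lower (4 without hCNR1-/- replicate 3, 5 without hCNR1+/+ replicate 1 or hCNR1-/- replicate 4, 6 without hCNR1+/+ replicate 4), beside 2.97% to 4.32% of all genes. *Rsad2*, *Iigp1* and *Ifih1* kept their calls in all 8 of these fits, as did *Oasl2*, whose probe was not well above background on 4 arrays. Of the 2 called higher, 1 remained with median scaling, the z-scores, all 8 arrays or the ordinary model, and 1 to 2 with an array left out. With normexp or without scaling 0 remained, where 1.34% and 0.786% of all genes were called higher, against 4.78% in the main processing. At an adjusted p below 0.05, array weights gave 2 lower and 2 higher; the 1 higher member was lost (0) with each scaling alternative, the z-scores, normexp, no filter, the ordinary model and the replicate block, and leaving out an array left 0 to 1. The cause was not tested.

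The member median was -0.92 without scaling, where all genes shifted by as much, and -0.52 to -0.28 with an array left out. Lower calls among all calls made up 44.0% in the main processing, 87.9% without scaling, 54.0% with the z-scores and 30.9% with all 8 arrays required. Without scaling and without hCNR1-/- replicate 4, an alternative chosen after seeing the data, 7 members were lower (all genes, 3.87%), 1 higher (all genes, 2.85%) and 0 higher after adjustment, and 57.6% of calls were lower. Pathway genes called lower numbered 2 with quantile normalization, 0 with the ordinary model and 0 to 2 with an array left out; those called higher numbered 0 without scaling, with normexp, with all 8 arrays required or in the added alternative, 1 with no filter, the ordinary model, array weights or the replicate block, and 1 to 3 with an array left out.

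Replicate numbers are not stated to pair the arrays, and the correlations of deviations were 0.21, -0.16, -0.05 and 0.02. With the block, 7 members stayed lower and 2 higher.

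Of 726 member values under alternatives, 36 had the opposite sign, none of them of a called member. Without scaling these were *Irf1* (-0.30), *Irf3* (-0.055), *Oasl1* (-0.35), *Ifitm2* (-0.35), *Parp14* (-0.38) and *Lgals3bp* (-0.40). *Zbp1* was at -0.011 with quantile normalization, -0.016 with median scaling, -0.019 with normexp, -0.52 without scaling, -0.086 with the z-scores and -0.41 with probe means. Quantile normalization gave *Ifitm2* -0.011 and *Lgals3bp* -0.015, and the z-scores gave *Parp14* -0.026. Array weights gave *Usp18* 0.47, *Irgm1* 0.044 and *Dtx3l* 0.20. With 1 array left out the range was -0.33 to 0.016 for *Irf7*, -0.74 to 0.35 for *Usp18*, -0.15 to 0.22 for *Zbp1*, -0.047 to 0.50 for *Oasl1*, -0.18 to 1.51 for *Gbp6*, -0.26 to 0.13 for *Irgm1*, -0.11 to 0.74 for *Parp14*, -0.58 to 0.19 for *Dtx3l* and -1.22 to 0.087 for *Cxcl9*. In the added alternative *Usp18* was at 0.23, *Ifitm2* at -0.037, *Gbp6* at -0.30 and *Dtx3l* at 0.073. Dim probes limit *Oasl2* and *Samd9l* most. The readings of *Rsad2*, *Iigp1* and *Gbp2* on hCNR1-/- replicate 4 also lay under the lowest signal well above background on that array.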
